A study of Mus musculus with 6 samples.

Results

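The genes described here encode enzymes that make purine and pyrimidine nucleotides and the folate-bound carbon units that purines need. They are 32 genes chosen by symbol, of 39017 genes in the count table, and each symbol matched 1 row. All 32 had enough counts to be tested, among 18268 genes tested in all. The cells were iGBs, splenic B cells grown ex vivo on 40LB feeder fibroblasts that display CD40L and secrete BAFF, with IL-4 (5 ng/ml per the labels, where the methods of the study give a lower dose), and freed of the feeders after 3.5 d. All 6 mice were C57BL6/J and carried Cg1-cre, a Cre recombinase driven from the Cγ1 constant region locus, which acts only once a B cell is activated. The 3 Control mice carried Cg1-cre alone and the 3 Prmt1-null mice carried Cg1-cre Prmt1f/f, so that deletion of the methyltransferase gene Prmt1 depended on the Cre having acted in each cell. Each group held 2 females and 1 male, with 1 library per mouse, and ages were not given in the sources used here.

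Libraries held 45343250 to 62774232 counts, and these totals did not separate the groups (two-sided exact permutation test over 20 arrangements, p = 0.4, where 0.1 is the smallest p that 3 against 3 can give). Prmt1 itself fell to 36.9% of the Control level without overlap. B cell markers were high in every library, at a sum of 357087 to 396535 normalized counts over 7 genes, and none was called. Of the 8 feeder fibroblast markers 7 had higher values in Prmt1-null iGBs and 0 were called, with sums of 1480 to 1715 in Control and 1668 to 1972 in Prmt1-null libraries. Of the 6 myeloid markers only Adgre1 was called, higher by 0.73 on the log2 scale, and the sums overlapped at 2172 to 2450 and 2237 to 2577. Plasma cell markers summed to 63294 to 68780 in Control and 70743 to 76564 in Prmt1-null libraries, with 0 of 6 called. Of these markers 5 had higher values in Prmt1-null iGBs and 1 had lower values. Xbp1 came nearest to the threshold, higher without overlap (log2 fold change 0.29, edgeR adjusted p = 0.0571). Of the T cell and erythroid markers 0 were called. No marker was at 0 in all libraries. The part of these cell types in the results below was not tested. In bulk RNA, fewer cells of a type and less RNA per cell cannot be told apart.

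Purines are built atom by atom on activated ribose until IMP is reached, and IMP is then turned into AMP or GMP. Pyrimidines are built as a free ring, joined to ribose to give UMP and aminated to CTP. Carbon units from serine enter folate in the mitochondrion through Shmt2 and Mthfd2 and leave as formate, which the cytosol uses for purine rings, for thymidylate and for methionine. Activated B cells that divide quickly depend on these routes to copy their DNA and RNA, and several of the genes are known targets of Myc and Atf4.

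Adsl was the only one of the 32 genes (3.12%) that was called, meaning an adjusted p under 0.05 in the edgeR quasi-likelihood test over all genes and a mean normalized count over 100, and it was higher in Prmt1-null iGBs. Over all genes 1.18% were called, 0.58% in the higher and 0.602% in the lower direction. Mthfd2 was the only other member with an adjusted p under 0.1, which 2.58% of all genes reached. At an unadjusted p under 0.05 there were 5 members with higher and 1 with lower values in Prmt1-null iGBs, together 18.8% of the 32, where 13.5% of all genes passed, 6.5% with higher and 7% with lower values. The 3 Control and 3 Prmt1-null libraries did not overlap for 10 of the 32 members (31.2%), 6 higher and 4 lower, beside 19.9% of all genes, 9.95% higher and 9.92% lower. The median log2 fold change of the 32 was 0.04 and that of all genes tested was −0.0008. For 23 of the 32 the log2 fold change was within 0.15 of 0, as it was for 9385 of the 18268 genes tested, and standard errors (SE) ran from 0.054 for Adss to 0.214 for Dhodh.

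**Figure D1:**
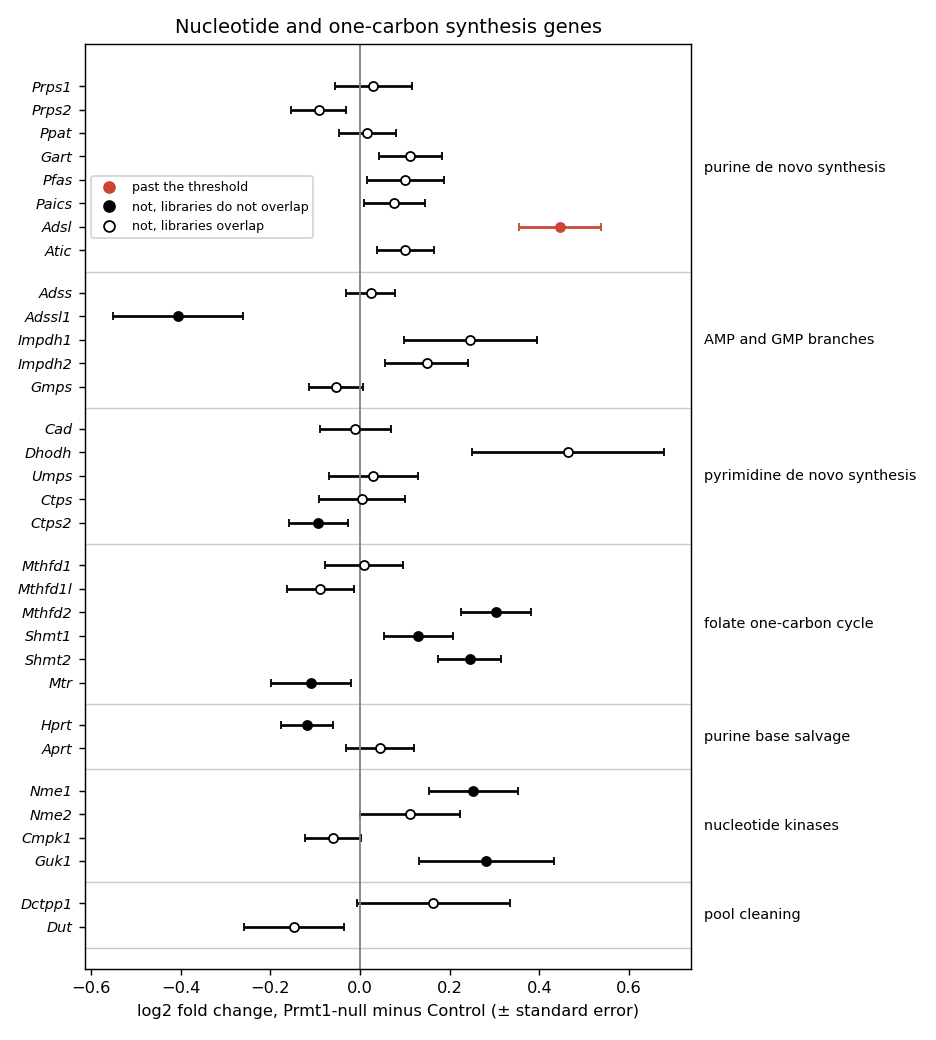
Log2 fold change of Prmt1-null against Control iGBs, with its standard error, for each of the 32 genes by role, n = 3 libraries per group. Filled points are genes whose libraries did not overlap, and Adsl, at 0.45, is the only gene past the threshold, drawn in red.

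The levels of these genes per exon length spanned more than 2 orders of magnitude and kept nearly the same order in both groups. In RPKM, counts scaled by exon length and by library size, Paics was highest in Control iGBs at 121 ± 8.91 (SD, n = 3). Hprt followed at 111 ± 3.00, then Prps2 at 68.3 ± 2.45 and Shmt2 at 65.9 ± 4.59. The ranges of Prps2 and Shmt2 overlapped in Control libraries, and Shmt2 stood above Prps2 in Prmt1-null iGBs, at 78.1 ± 5.39 against 64.1 ± 2.97. The lowest were Mtr at 3.13 ± 0.0106, Guk1 at 2.72 ± 0.245, Impdh1 at 2.29 ± 0.434 and Dhodh at 0.579 ± 0.192. Of the 31 pairs of neighbours in the Control order, 21 overlapped between libraries, among them every pair from Atic down to Gmps and from Ctps2 down to Cad. These levels rest on exon lengths from GENCODE M21, which need not equal the lengths of the annotation used for counting.

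**Figure D2:**
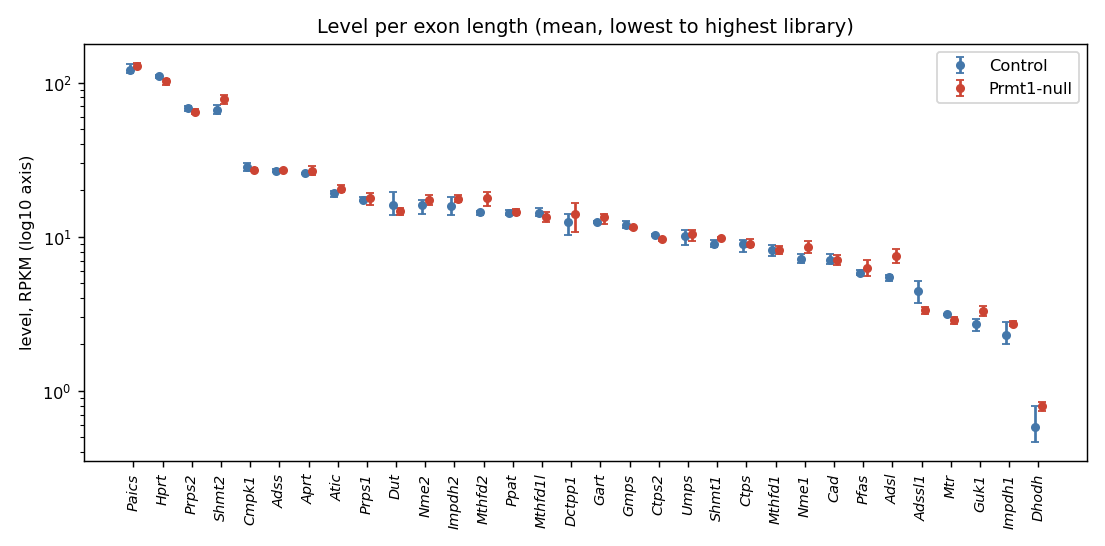
Level of each gene in RPKM on a log10 axis, in the order of the Control means, with points at the mean and bars from the lowest to the highest of 3 libraries in Control (blue) and Prmt1-null (red) iGBs. Paics and Hprt lie above 100 and Dhodh below 1 in both groups.

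Adsl (ENSMUSG00000022407, mm10 chromosome 15, 80948490 to 80970946, plus strand) encodes adenylosuccinate lyase, which acts both on the way to IMP and in the branch from IMP to AMP. Mthfd2 (ENSMUSG00000005667, chromosome 6, 83305691 to 83325908, minus strand) and Shmt2 (ENSMUSG00000025403, chromosome 10, 127517123 to 127522444, minus strand) encode the enzymes that load serine carbon onto folate in the mitochondrion and oxidize it there. These were the 3 members with the smallest p. The 250 bases upstream of their starts in RefSeq are shown because the results turn on these genes, each read 5′ to 3′ on the strand of the gene (GRCm38.p6, chr15:80948240-80948489, chr6:83317605-83317854 and chr10:127522445-127522694). Capitals mark matches to the 6 motifs listed with the promoter counts below.
Adsl: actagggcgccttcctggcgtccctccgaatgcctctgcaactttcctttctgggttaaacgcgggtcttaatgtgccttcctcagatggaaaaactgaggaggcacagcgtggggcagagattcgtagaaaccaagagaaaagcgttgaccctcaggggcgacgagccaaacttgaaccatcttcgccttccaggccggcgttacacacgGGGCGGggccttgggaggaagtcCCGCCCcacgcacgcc
Mthfd2: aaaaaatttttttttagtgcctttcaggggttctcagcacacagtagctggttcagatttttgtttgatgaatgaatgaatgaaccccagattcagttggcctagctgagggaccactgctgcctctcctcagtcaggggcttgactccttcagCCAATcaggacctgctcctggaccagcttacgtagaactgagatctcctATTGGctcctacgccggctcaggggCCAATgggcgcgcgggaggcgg
Shmt2: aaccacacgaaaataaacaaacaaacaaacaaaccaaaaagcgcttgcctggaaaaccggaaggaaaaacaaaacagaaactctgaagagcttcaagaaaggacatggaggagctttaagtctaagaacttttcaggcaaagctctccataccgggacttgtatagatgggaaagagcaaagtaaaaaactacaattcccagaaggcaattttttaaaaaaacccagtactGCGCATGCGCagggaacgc

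Adsl had 1606, 1750 and 1766 normalized counts in Control iGBs and 2104, 2280 and 2595 in Prmt1-null iGBs. Every Prmt1-null library lay above every Control library, with a gap of 338 between the groups. The mean rose from 1707 ± 88.0 (SD, n = 3) to 2326 ± 249 (SD, n = 3), or 136% of Control, with a log2 fold change of 0.45 (SE 0.091, edgeR adjusted p = 0.033). The call was lost, with adjusted p from 0.0614 to 0.161, when Control replicate 1 or 2 or any Prmt1-null library was left out, while the fold change stayed between 0.36 and 0.52. At 5.46 RPKM in Control it was among the lower members, and it reached 7.45 RPKM in Prmt1-null iGBs.

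The other genes of the route to IMP did not follow Adsl past the threshold. Ppat, the amidotransferase that commits ribose to purine synthesis, had a log2 fold change of 0.02 (SE 0.064). Its neighbour Paics, which lies head to head with Ppat on the opposite strand of chromosome 5 and shares 272 exon bases with it, had one of 0.08 (SE 0.068). Paics had 22897, 20571 and 19958 normalized counts in Control libraries and 21626, 21905 and 23329 in Prmt1-null libraries, so the groups overlapped. Gart, Pfas and Atic, which catalyse steps before and after Paics, had log2 fold changes of 0.11, 0.10 and 0.10, with adjusted p of 0.53, 0.669 and 0.529. All 3 overlapped between groups. The ribose activating enzymes Prps1 and Prps2 had log2 fold changes of 0.03 and −0.09.

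**Figure D3:**
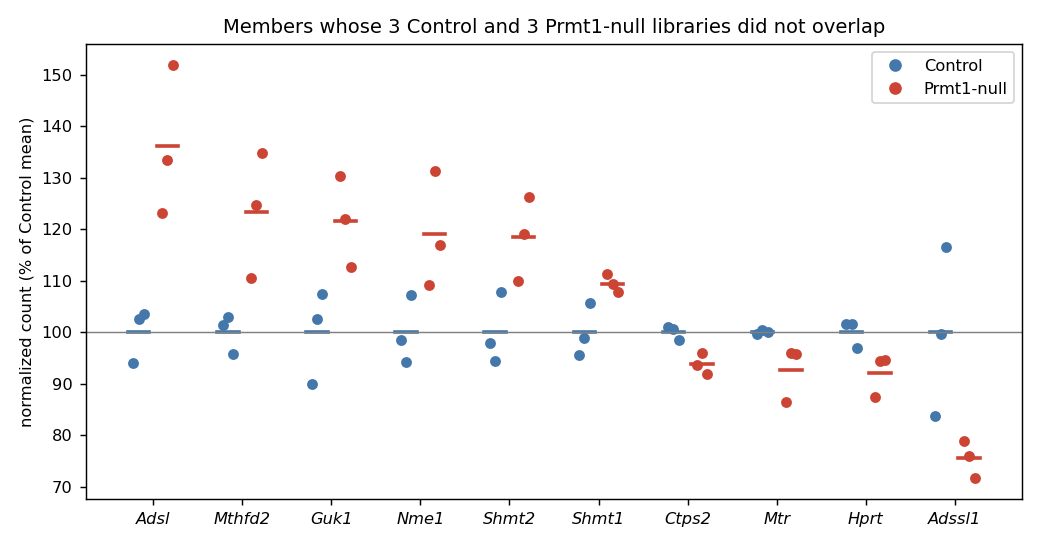
Normalized count of each library as a percentage of the Control mean, for the 10 genes whose Control (blue) and Prmt1-null (red) libraries did not overlap, with a bar at each mean. Adsl reaches 136% of Control and Adssl1 falls to 75.5%.

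In the branches from IMP, no gene was called. Adssl1, the muscle form of adenylosuccinate synthase, had 429, 510 and 597 normalized counts in Control and 404, 389 and 367 in Prmt1-null libraries. All Prmt1-null values lay below the Control values, at 75.5% of the Control mean, but the log2 fold change of −0.41 (SE 0.145) had an edgeR adjusted p of 0.217. Adss, the form that B cells expressed at 26.6 RPKM against 4.42 RPKM for Adssl1, had one of 0.02 (SE 0.054). Impdh1 and Impdh2, the dehydrogenases that commit IMP to GMP, had log2 fold changes of 0.25 and 0.15 (SEs 0.148 and 0.092), and both overlapped between groups. Impdh1 was at 0.42 without Control replicate 2 and 0.16 without Control replicate 3, and Impdh2 at 0.26 without Control replicate 1, 0.06 without Control replicate 3 and 0.10 without Prmt1-null replicate 3. In Impdh2, 43.4% of the 30-base stretches of the transcript also occur in the transcript of the pseudogene Impdh2-ps, so its counts are uncertain. Gmps, which finishes GMP, had a log2 fold change of −0.05.

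The pyrimidine route showed no called gene. Cad, which carries the first steps of the route in a single protein, had 2999, 3484 and 3131 normalized counts in Control and 2989, 3093 and 3469 in Prmt1-null libraries, with a log2 fold change of −0.01 (SE 0.078). Umps and Ctps, which make UMP and CTP, had log2 fold changes of 0.03 and 0.01. The second CTP synthase, Ctps2, did not overlap, with 2641 to 2711 normalized counts in Control and 2464 to 2573 in Prmt1-null libraries, a log2 fold change of −0.09 (SE 0.066, edgeR adjusted p = 0.596). Dhodh, the dehydrogenase of the route in the inner mitochondrial membrane, had the largest log2 fold change of the 32, 0.46, with the largest SE, 0.214, and an adjusted p of 0.364. Its normalized counts were 165, 163 and 281 in Control and 258, 296 and 285 in Prmt1-null libraries, so Control replicate 3 lay inside the Prmt1-null range. Without that library the log2 fold change of Dhodh was 0.77 (adjusted p = 0.0558).

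Among the 6 folate members, the highest fold changes were those of Mthfd2 and Shmt2, of the mitochondrial entry. Mthfd2 had 2814, 2858 and 2659 normalized counts in Control and 3070, 3465 and 3744 in Prmt1-null libraries. The groups did not overlap, and the mean was 2777 ± 105 (SD, n = 3) in Control and 3426 ± 339 (SD, n = 3) in Prmt1-null iGBs. The log2 fold change was 0.30 (SE 0.078, edgeR adjusted p = 0.0824), short of the threshold. Shmt2 had 11127, 10724 and 12251 normalized counts in Control and 12501, 13531 and 14357 in Prmt1-null libraries, again without overlap, with a log2 fold change of 0.24 (SE 0.07, edgeR adjusted p = 0.119). The DESeq2 Wald test gave adjusted p of 0.0151 for Mthfd2 and 0.0206 for Shmt2, and edgeR without the filter on low counts gave 0.00591 and 0.0124, so the side of the threshold for both depended on the tool and the filter.

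The 4 members of the later and cytosolic steps of the folate cycle had log2 fold changes between −0.11 and 0.13. Mthfd1l, which releases formate from the mitochondrion, had a log2 fold change of −0.09 (SE 0.075), and the cytosolic trifunctional enzyme Mthfd1 one of 0.01 (SE 0.086). Shmt1, the cytosolic counterpart of Shmt2, had 1842 to 2037 normalized counts in Control and 2080 to 2147 in Prmt1-null libraries, a log2 fold change of 0.13 without overlap (edgeR adjusted p = 0.501). Mtr, methionine synthase, which hands the methyl carbon of folate to homocysteine, had 1474 to 1484 in Control and 1277 to 1420 in Prmt1-null libraries, a log2 fold change of −0.11 without overlap (edgeR adjusted p = 0.653).

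Ratios of enzymes that share a reaction, or follow one another, were compared within each library, where library size drops out. Of 7 pairs, the ratio did not overlap between groups for 2. The ratio of Mthfd2 to Mthfd1l counts was 0.84, 0.753 and 0.781 in Control and 1.00, 0.975 and 1.13 in Prmt1-null libraries. The mean ratio was 0.792 ± 0.0443 in Control and 1.04 ± 0.084 in Prmt1-null iGBs (SD, n = 3, two-sided exact permutation p = 0.1, adjusted over the 7 pairs 0.35). The ratio of Adss to Adssl1 was 13.3 ± 2.47 in Control and 17.6 ± 1.01 in Prmt1-null iGBs (SD, n = 3, exact permutation p = 0.1, adjusted 0.35). The permutation p of both is the smallest that 3 against 3 can give. The ratio of Shmt2 to Shmt1 overlapped, at 5.89 ± 0.236 and 6.38 ± 0.541, as did those of Prps2 to Prps1, Impdh2 to Impdh1, Ctps2 to Ctps and Nme1 to Nme2. The log2 differences of these 5 ratios lay between −0.12 and 0.13, with exact permutation p from 0.2 to 0.8.

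**Figure D4:**
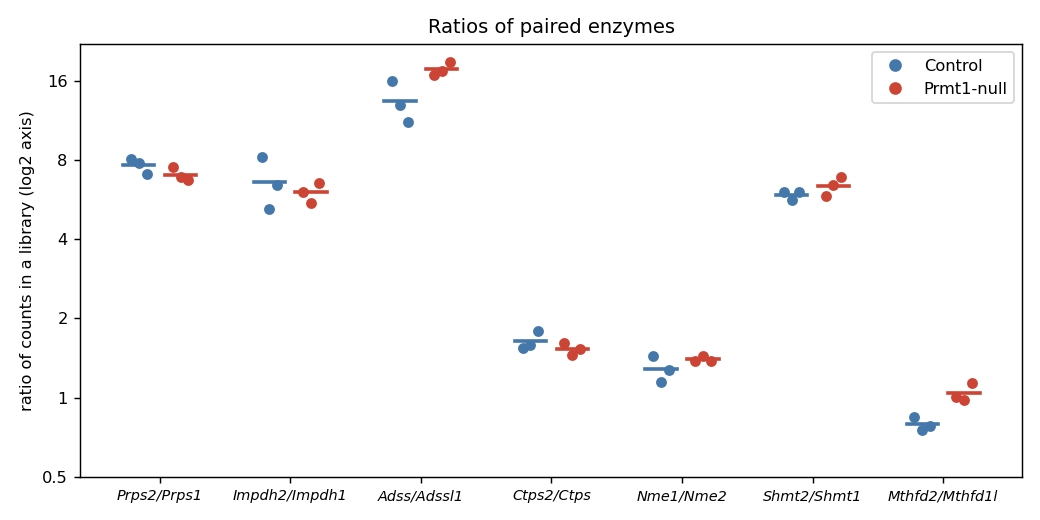
Ratio of the counts of paired enzymes in each library on a log2 axis, with a bar at the mean of 3 Control (blue) and 3 Prmt1-null (red) libraries. The Mthfd2 to Mthfd1l and Adss to Adssl1 ratios lie above all Control libraries in Prmt1-null iGBs, and the other 5 overlap.

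The isozymes were compared in sequence, since reads that fit both could be counted for either. Nucleotide identity of the aligned coding sequences was 80.0% for Nme1 and Nme2 and 79.9% for Prps1 and Prps2, and 61.5% to 70.6% for the other 4 isozyme pairs. The longest stretch that a pair shared was 29 bases, in Nme1 and Nme2 and in Impdh1 and Impdh2, and the authors dropped trimmed reads under 30 bases. Other copies share longer stretches. The 19.1% of Prps1 stretches of 30 bases that recur elsewhere recur in Prps1l3, and the read-through gene Gm20390 contains 47.9% of those of Nme2 and 11.7% of those of Nme1. Gm20390 had its own row with 1348 to 2410 counts per library, so part of the reads of Nme1 and Nme2 may have been assigned there or dropped.

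Purine bases are salvaged by Hprt and Aprt. Hprt, which recycles hypoxanthine and guanine, had 8050.4, 8048 and 7677 normalized counts in Control and 6926, 7485 and 7492 in Prmt1-null libraries. All 3 Prmt1-null libraries were lower, at 92.1% of the Control mean, with a log2 fold change of −0.12 (SE 0.059, edgeR adjusted p = 0.408). Aprt, which recycles adenine, had a log2 fold change of 0.04. Hprt, Prps1, Prps2 and Ctps2 lie on chromosome X. Of these 4 genes 3 had lower values in Prmt1-null iGBs and 0 were called, with a median log2 fold change of −0.09, whereas the median of the 28 autosomal members was 0.09. This split was chosen after values had been seen, and the difference between the medians was not tested. With sex as a covariate the log2 fold change of Hprt was −0.12 (edgeR adjusted p = 0.386).

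Nucleotide kinases raise monophosphates and diphosphates to triphosphates. Nme1, a nucleoside diphosphate kinase, had 1305, 1248 and 1421 normalized counts in Control and 1446, 1739 and 1548 in Prmt1-null libraries, without overlap (log2 fold change 0.25, SE 0.1, edgeR adjusted p = 0.268). Its tandem neighbour on chromosome 11, Nme2, had a log2 fold change of 0.11 and overlapped. Guk1, the GMP kinase, had few counts, 249 to 297 in Control and 312 to 360 in Prmt1-null libraries, and a log2 fold change of 0.28 without overlap (SE 0.15, edgeR adjusted p = 0.448). Cmpk1, the UMP and CMP kinase, had a log2 fold change of −0.06.

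The pool-cleaning enzymes remove nucleotides that should not enter DNA. Dut, which hydrolyses dUTP, had 2044, 2598 and 1838 normalized counts in Control and 1848, 1964 and 2042 in Prmt1-null libraries. The 3 Prmt1-null libraries all lay between the lowest and the highest Control library, and Control replicate 2 stood highest. The log2 fold change was −0.15 (SE 0.111, edgeR adjusted p = 0.616), and it was 0.01 without Control replicate 2 and −0.25 without Control replicate 3. Dctpp1, which removes dCTP and its damaged forms, had one of 0.16 (SE 0.171). It was 0.04 without Control replicate 1 or Prmt1-null replicate 3, 0.25 without Control replicate 2 and 0.33 without Prmt1-null replicate 1.

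The libraries of a group were also ranked over the members. Among the 3 Prmt1-null libraries replicate 1 was the lowest for 24 of the 32 members, while replicates 2 and 3 were the lowest for 3 and 5. Replicate 1 had a median of 96.4% of the 6-library mean over the members, against 104% for replicate 2 and 103% for replicate 3, and the Control medians were 97.2%, 101% and 98.0%, so that replicate 1 lay beside Control replicates 1 and 3. Without it the median log2 fold change of the members was 0.10 in place of 0.04. With 1 library or another left out, the log2 fold change ran from 0.07 to 0.19 for Gart, 0.0033 to 0.18 for Pfas, 0.06 to 0.14 for Atic, 0.03 to 0.17 for Nme2, −0.14 to −0.08 for Hprt and −0.13 to −0.06 for Mtr, and those of Hprt and Mtr nearest to 0 came without Prmt1-null replicate 1. It ran from 0.04 to 0.14 for Paics, −0.14 to −0.03 for Mthfd1l, −0.10 to −0.0073 for Cmpk1, −0.084 to −0.0081 for Gmps and 0.01 to 0.04 for Adss. Among the Control libraries, replicates 1, 2 and 3 were the lowest for 12, 5 and 15 members.

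The neighbouring pathways were read from 6 lists of other genes, 67 in all, of which 61 were tested, 1 called higher and 2 called lower. Over all genes 0.58% were called higher and 0.602% lower. DNA precursors come from ribonucleotides through ribonucleotide reductase, or from deoxynucleosides through the deoxynucleoside kinases. In this list of 12 genes 2 were called lower and 0 higher. These were Rrm2, the regulated subunit of the reductase, with 7687, 7411 and 7673 normalized counts in Control and 5723, 6267 and 6486 in Prmt1-null libraries (log2 fold change −0.30, SE 0.061, edgeR adjusted p = 0.033), and Dck, deoxycytidine kinase, with 8632, 7736 and 7662 in Control and 6015, 6460 and 6717 in Prmt1-null libraries (log2 fold change −0.32, SE 0.066, edgeR adjusted p = 0.033). Of the 12, 7 did not overlap and were lower and 0 were higher, where 9.92% of all genes were lower without overlap, and the median log2 fold change was −0.19. Rrm1 and Tyms had log2 fold changes of −0.18 and −0.14 with adjusted p of 0.218 and 0.467, and Tyms was at −0.08 without Control replicate 1 or Prmt1-null replicate 1. The difference between this list and the 32 members was not tested. Of 10 genes of replication licensing and the replication fork, 0 were called. Their median log2 fold change was 0.01, with a range of −0.15 to 0.18. Of these genes 2 were higher and 2 lower without overlap, where 19.9% of all genes did not overlap. The share of cells in S phase was not tested here. The study reports arrest of Prmt1-null iGBs in G1, by DNA labelling at a slightly later time of culture.

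In purine salvage and breakdown, Nt5c2, the nucleotidase that opens IMP and GMP to breakdown, was called among 15 tested genes. It had 2321, 2385 and 2455 normalized counts in Control and 2917, 3070 and 2919 in Prmt1-null libraries, a log2 fold change of 0.31 (SE 0.067, edgeR adjusted p = 0.0391). Of the 15 genes 3 were higher and 4 lower without overlap, beside 9.95% and 9.92% of all genes. Leaving out any library other than Control replicate 3 raised the edgeR adjusted p of Nt5c2, Rrm2 and Dck above 0.05, with log2 fold changes of 0.30 to 0.34, −0.34 to −0.25 and −0.36 to −0.26 over all 6 omissions. With the replicate number as a block, Dck (adjusted p = 0.0598) and Nt5c2 (adjusted p = 0.0757) also lost their calls and Rrm2 kept its call (adjusted p = 0.0481). Among 9 tested genes of pyrimidine salvage, 12 other folate enzymes and carriers and 6 of the methionine cycle, 0 were called. The values of 10 of the 12 folate genes were higher in Prmt1-null iGBs, and the median log2 fold change over the 12 was 0.12. The highest, named after their values were seen, were the mitochondrial enzymes Mthfd2l and Aldh1l2, both at low counts. Mthfd2l had 35.3 to 58.8 normalized counts in Control and 60.8 to 127 in Prmt1-null libraries, without overlap (log2 fold change 0.88, SE 0.381, edgeR adjusted p = 0.322). Aldh1l2 had 77.8 to 141 in Control and 138 to 218 in Prmt1-null libraries, which overlapped (log2 fold change 0.85, SE 0.268, edgeR adjusted p = 0.159).

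In serine and glycine supply 0 of 7 were called. Phgdh, the first enzyme of serine synthesis, had 4844, 4472 and 4909 normalized counts in Control and 4911, 6016 and 6008 in Prmt1-null libraries (log2 fold change 0.25, edgeR adjusted p = 0.152). Phgdh passed without the filter on low counts, at an edgeR adjusted p of 0.0145, and not with the DESeq2 Wald test, at 0.0555. Psat1, the next enzyme, had a log2 fold change of 0.16 (edgeR adjusted p = 0.395), and of 0.09 without Prmt1-null replicate 3. Atf4, the stress factor known to drive Shmt2, Mthfd2, Phgdh and Psat1, had 12728, 13983 and 13045 normalized counts in Control and 15855, 15120 and 15758 in Prmt1-null libraries without overlap, a log2 fold change of 0.23 (SE 0.061, edgeR adjusted p = 0.0865). The side of the threshold depended on the tool and the filter here too, with an adjusted p of 0.00582 in the DESeq2 Wald test and of 0.0186 in edgeR without the filter. Myc, a known activator of nucleotide synthesis genes, had a log2 fold change of 0.03 (SE 0.069, edgeR adjusted p = 0.902).

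**Figure D5:**
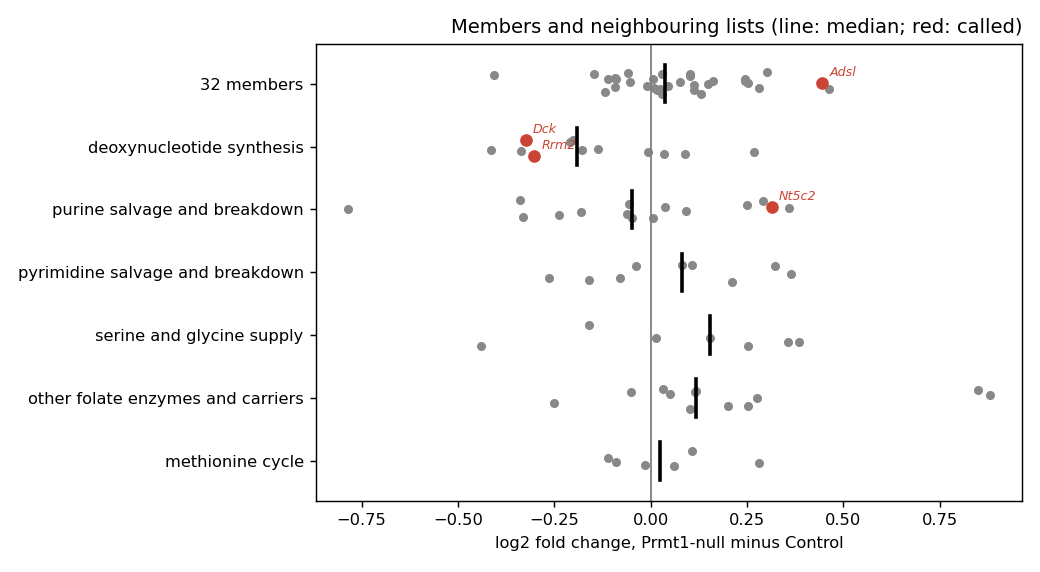
Log2 fold change of each tested gene among the 32 members and in 6 lists of neighbouring pathways, with a line at each median and called genes in red. The deoxynucleotide list has its median at −0.19, left of 0, and the 32 members have theirs at 0.04.

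Promoters of 30 of the 32 genes, 37 windows from 250 bases before to 50 after a start, were found in RefSeq. They were searched on both strands for the E-box CACGTG that Myc binds, the core TGATGNAA of the element that Atf4 binds and the form TTTGGCGC of the E2F site. After the upstream sequences shown above had been read, CCAAT, the GC box GGGCGG and the NRF1 palindrome were added. The E-box occurred in 13.5% of member windows and 7.15% of all 32851 windows, in Atic, Paics, Impdh2 and Nme1. The Atf4 core occurred in 2.7% of member windows, in Prps1, and in 3.97% of all windows, and the E2F form in 0 member windows and 0.514% of all. GGGCGG stood in 73% of member windows and 35.7% of all, and CCAAT in 32.4% and 37.4%. The NRF1 palindrome stood in 5.41% and 0.971%, for the members in 2 of 37 windows, those of Ctps and Shmt2. All windows were included whether or not their gene was tested here, and the differences in share were not tested. In the sequences shown, Adsl holds the GC box at 2 places, Mthfd2 holds CCAAT at 3 places and Shmt2 holds the NRF1 palindrome at 1 place. None of these matches overlap each other, and a match is a run of letters, not a shown binding site.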

How the data were processed

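RNA-seq of 6 libraries, 3 Control and 3 Prmt1-null, was taken from the raw counts that the authors deposited, 1 whole number per gene and library without normalization. Per the methods of the study and the submitters' processing notes, reads were trimmed with Trimmomatic 0.32, aligned to mm10 with STAR 2.3.0e and counted on exons of Ensembl genes with featureCounts 1.4.4. Primary alignments to at most 2 places were kept. The strand setting was not given in the sources used here, so genes that overlap on opposite strands are uncertain, and reads carry no molecular identifiers.

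In R 4.3.3, 398 chromosome Y genes were left out as in the study. Genes passing filterByExpr (minimum count 10) were scaled by TMM and fitted with edgeR 4.0.16 (quasi-likelihood), with Benjamini-Hochberg adjustment over 18268 genes. Normalized counts are scaled to the mean effective library size. Each edgeR SE is the absolute log2 fold change divided by the square root of the quasi-likelihood F statistic. The biological coefficient of variation was 0.154. Total counts were 45343250 to 62774232, and counting error is relatively larger for genes with few counts. Groups and sex came from the labels. All members get a role and a fold change. Full values go to called members, those with an adjusted p under 0.1 and those with the smallest p in each role group, and also, chosen after their values were seen, to Shmt2, Paics and Cad, and from the other lists to called genes and a few fixed ones, of which 1 is not reported here. The 32 members and the lists were chosen with earlier results of these data known. Positions, exon lengths and transcripts are from GENCODE M21 (GRCm38), and promoters from RefSeq GRCm38.p6. Protein sequences were not used here. Alternatives were DESeq2 1.42.0 run after the same filter, limma-voom (limma 3.58.1), DESeq2 size factors, library size alone, no filter, a replicate block, sex as a covariate, chromosome Y kept, no minimum mean count and each library left out. The motif additions, the Mthfd2 to Mthfd1l ratio, the ratio tests, the shared-stretch count, the library ranking and the chromosome X split were chosen after values had been seen.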

Additional observations from a re-analysis of the deposited data

How the results depend on the processing

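The call of Adsl held under every alternative that used all 6 libraries, with log2 fold changes from 0.44 to 0.45. Members called numbered 3 with the DESeq2 Wald test and 3 without a filter on low counts, Adsl, Mthfd2 and Shmt2 both times, and from 0 to 2 with a library left out. Over all genes, 216 were called, against 746 with the DESeq2 Wald test, 675 without the filter and 31 to 340 with a library left out. Of the neighbouring pathway genes 3 were called, 5 with the DESeq2 Wald test, 5 without the filter (Phgdh among them), 1 with the replicate block (Rrm2) and 0 to 3 with a library left out. The median log2 fold change of the members was 0.018 to 0.097 with a library left out.

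Same-numbered libraries did not deviate together (correlations of −0.0716, 0.0482 and −0.0772). Whether they were processed together cannot be told from this, since each deviation is taken from a mean of few libraries. With the replicate block 151 genes and 1 member were called, Adsl at an adjusted p of 0.0414, and Control replicate 2 and no other Control library correlated best with the Prmt1-null library of its own number. With library size alone Ctps turned to −0.00586 and Mthfd1 to −0.00215. With a library left out the sign also turned for some values near 0: Mthfd1 ranged from −0.0501 to 0.0658, Myc from −0.0389 to 0.0801, Cad from −0.0769 to 0.0542, Dut from −0.251 to 0.00767, Ppat from −0.0194 to 0.0538, Umps from −0.0632 to 0.0996, Ctps from −0.0678 to 0.0594, Prps1 from −0.0194 to 0.0995 and Aprt from −0.00563 to 0.0871. The cause was not tested. Fits with a library left out hold fewer samples, and the sexes are then unequal between the groups. The males were Control replicate 1 and Prmt1-null replicate 3.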
